A study of Mus musculus with 2 samples.

Results

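The caspases, gasdermins and the inflammasome adaptor ASC are the machinery with which a cell carries out apoptosis and pyroptosis, and 8 of their genes were followed here among the 31053 genes measured: Casp1, Casp2, Casp6, Casp8, Casp9, Gsdmd, Gsdme and Pycard, which encodes ASC. They were chosen by symbol, and each symbol was found once. The cells were AE9a leukemia cells. AE9a is a truncated form of the AML1-ETO fusion protein, and it was delivered with GFP by a retrovirus into blood-forming cells of Usp18-floxed UBCER-Cre mice before transplantation. Per the methods the recipients were wild-type C57BL/6 mice. Sick recipients received oil or tamoxifen, and Lin- c-Kit+ GFP+ splenocytes, that is cells without mature lineage markers and with the Kit receptor, were sorted 3 days after the first injection.

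Both groups therefore carry AE9a-GFP, the floxed Usp18 gene and UBCER-Cre, and they differ in the injection. The Cre is driven by a ubiquitin promoter that is active in most tissues, and it is switched on by tamoxifen. The series title and the study describe a loss of both Usp18 alleles. The genotype entries name Usp18f/f for oil and Usp18delta/delta for tamoxifen, whereas the treatment protocol names Usp18+/f and a heterozygous loss, and the series' design text also calls the loss heterozygous. Each group is 1 library of cells pooled from 3 mice, so there is no replicate and no test. Each value is given with a 95% interval that covers counting error only. A difference is one between these 2 libraries and not a measured effect of the treatment.

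Caspases are proteases made as inactive precursors. Initiator caspases (Casp2, Casp8, Casp9) are activated on large protein platforms, and executioner caspases, with Casp6 counted among them, are then cleaved and dismantle the cell. In the inflammasome, ASC joins a sensor to caspase-1, which cuts gasdermin D. The released end of gasdermin D forms pores in the plasma membrane, and gasdermin E, once cleaved, does the same. In myeloid cells this machinery is best known for the release of inflammatory cytokines. All of these steps are controlled by protein cleavage, which transcript counts do not measure.

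After cells with under 500 detected genes or over 10% mitochondrial UMIs had been left out, 6838 cells with 66045700 UMIs remained in the oil-labelled library and 6472 cells with 60661486 UMIs in the tamoxifen-labelled library. The median was 8622.5 and 8209.5 UMIs per cell, and 14 barcodes occur in both libraries. The sorted identity was visible in Kit and 3 other progenitor markers, which summed to 643 and 683 CPM (counts per 1000000 UMIs). Markers of T cells, neutrophils and dendritic cells had 3 UMIs or fewer each. Of 6 macrophage and monocyte markers 4 exceeded 3 UMIs, and the list summed to 6.31 and 6.23 CPM. Mast and basophil markers summed to 1847 and 1570 CPM, and erythroid markers to 4777 and 5998 CPM. Usp18, the targeted gene, stood at 5.62 CPM in the oil-labelled library and at 15.4 CPM in the tamoxifen-labelled library. This goes against the label, although reads from the 3′ end need not show a deleted exon. The interferon-stimulated genes Isg15 and Ifit1 were 2.37-fold and 9.02-fold higher in the tamoxifen-labelled library. All directions below are those of the labels.

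The promoters of 4 genes are shown. They are those of the nearly silent Casp1, of Pycard, the highest member, and of Casp2 at a middle level, with the interferon-stimulated gene Isg15 for comparison. Each line gives the 250 bases before the transcription start from RefSeq (GRCm38.p6), read 5′ to 3′ on the strand of the gene. Capitals mark CpG in the 3 members. In Isg15 they mark overlapping matches to a core of the interferon-stimulated response element, written GAAA, any 2 bases, GAAA.
Casp1 (chr9:5298267-5298516, plus strand): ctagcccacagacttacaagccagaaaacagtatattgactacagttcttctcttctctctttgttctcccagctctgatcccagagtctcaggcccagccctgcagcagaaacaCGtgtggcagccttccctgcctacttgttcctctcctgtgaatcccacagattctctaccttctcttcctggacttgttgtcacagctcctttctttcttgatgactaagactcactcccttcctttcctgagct
Pycard (chr7:127993868-127994117, minus strand): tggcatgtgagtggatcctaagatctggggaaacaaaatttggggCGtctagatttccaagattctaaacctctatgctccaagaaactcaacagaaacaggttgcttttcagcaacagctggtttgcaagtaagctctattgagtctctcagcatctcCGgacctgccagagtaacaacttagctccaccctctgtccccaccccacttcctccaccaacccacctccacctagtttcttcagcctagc
Casp2 (chr6:42264735-42264984, plus strand): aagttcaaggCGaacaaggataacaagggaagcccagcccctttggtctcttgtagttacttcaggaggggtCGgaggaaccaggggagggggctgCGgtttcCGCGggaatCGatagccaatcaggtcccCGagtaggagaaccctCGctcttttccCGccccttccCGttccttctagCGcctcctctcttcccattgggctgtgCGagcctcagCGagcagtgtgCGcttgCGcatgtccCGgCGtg
Isg15 (chr4:156200819-156201068, minus strand): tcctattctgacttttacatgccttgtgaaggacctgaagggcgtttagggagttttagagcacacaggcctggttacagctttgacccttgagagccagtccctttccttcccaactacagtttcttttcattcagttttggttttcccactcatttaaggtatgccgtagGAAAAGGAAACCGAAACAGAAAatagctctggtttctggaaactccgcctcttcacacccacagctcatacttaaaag

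A RefSeq promoter was found for 7 of the 8 members. CpG was counted in these bases and the first 50 of the transcript, 300 bases in all. The promoters of Casp1 and Pycard each held 3 CpG and that of Casp8 held 5, against a median of 7 over 32851 mouse promoters. Casp6 held 16, Gsdme 24, Casp2 26 and Casp9 28. On both strands, this element was present 3 times in the Isg15 window and in none of the 7 member windows, and 3.44% of all promoters held it. No member window held TTCNNNGAA, the core bound by STAT dimers, which 8.30% of promoters held, or the NF-κB consensus GGGAC followed directly by TTTCC, which 0.155% held. The RUNX core TGTGGT (16.8% of promoters) and the GATA core AGATAA (11.2%) were each present in Casp8 alone among the members, and the ETS core CCGGAAG (8.86%) in Gsdme alone. These are matches of letters in a short window and do not show binding.

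Which of these genes the leukemia cells transcribe was asked first. In 3′ counting 1 captured transcript gives 1 UMI whatever its length, so CPM is already a level per transcript, although capture can differ between genes. Of the 8 members 7 were transcribed at 16.1 to 95.9 CPM in both libraries, and Casp1 was nearly absent. In both libraries the order from high to low began with Pycard, Casp8 and Casp6. The Casp8 and Casp6 intervals were apart in the oil-labelled library and overlapped in the tamoxifen-labelled library. Casp2 and Gsdme followed with overlapping intervals in the oil-labelled library and separate ones in the other, and Gsdmd and Casp9 came last with overlapping intervals in both.

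Among the initiators, Casp8, which is activated at death receptors, counted 3627 UMIs in the oil-labelled library and 3098 in the tamoxifen-labelled library, at 54.9 CPM (53.1 to 56.7) and 51.1 CPM (49.3 to 52.9). Casp2, an initiator activated by the PIDD1 platform, had 1695 and 1567 UMIs, at 25.7 and 25.8 CPM. Casp9, activated by APAF1 and cytochrome c, had 1063 and 982 UMIs, at 16.1 and 16.2 CPM. The 3 initiators thus kept the same order in both libraries. Casp9 shares exon bases with Cela2a and Ctrc on the opposite strand.

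Casp6, which cleaves nuclear lamins, counted 3096 and 3041 UMIs, at 46.9 CPM (45.2 to 48.6) and 50.1 CPM (48.4 to 51.9). It was the third highest member in both libraries.

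The inflammasome branch was uneven. Pycard was the highest member with 6331 and 4749 UMIs, at 95.9 CPM (93.5 to 98.2) and 78.3 CPM (76.1 to 80.5), and it stood above 83.9% and 81.5% of the 10527 genes whose UMIs over both libraries reached 100. Casp1 had 6 UMIs in the oil-labelled library and 1 in the tamoxifen-labelled library, at 0.091 CPM (0.033 to 0.198) and 0.016 CPM. Its log2 ratio of -2.46 has an interval of -7.99 to 0.58, so no difference was detectable at this depth. Its neighbour Casp4, which detects bacterial lipopolysaccharide, had 28 and 10 UMIs. Casp12 and Casp14 had 0 UMIs in both libraries.

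Both major pore formers were present. Gsdmd, cut by inflammatory caspases and by caspase-8, counted 1116 and 1006 UMIs, at 16.9 CPM (15.9 to 17.9) and 16.6 CPM (15.6 to 17.6). Gsdme, whose cleavage can turn apoptosis into pyroptosis, counted 1684 and 1393 UMIs, at 25.5 CPM (24.3 to 26.7) and 23 CPM (21.8 to 24.2), and lay above Gsdmd in each library with intervals apart. The other gasdermins were barely detected, with 44 and 37 UMIs for Gsdma, 2 and 1 for Pjvk, and 0 and 4 for Gsdmc4. Gsdma2, Gsdma3, Gsdmc, Gsdmc2 and Gsdmc3 had 0 UMIs in both.

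**Figure D1:**
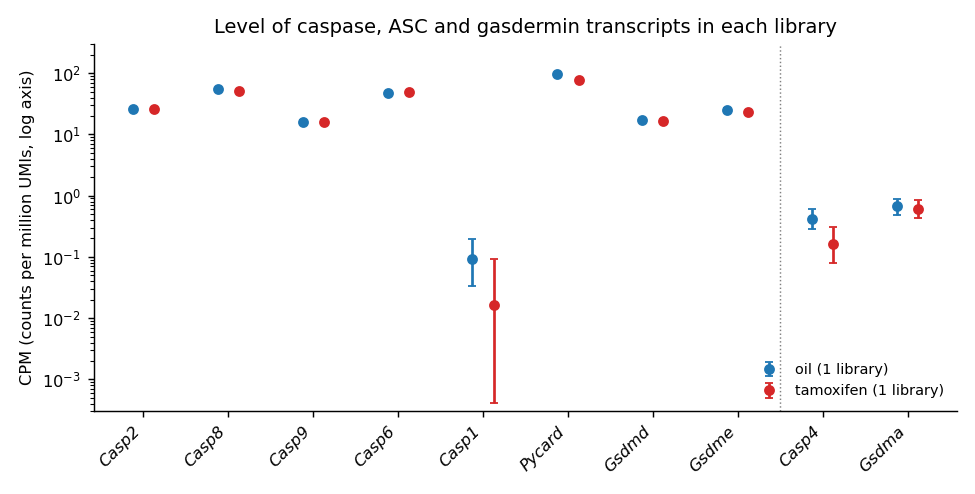
CPM of the 8 members (left of the dotted line) and of Casp4 and Gsdma on a logarithmic axis, with 1 point per library and 95% Poisson counting intervals. Pycard leads the members at 95.9 and 78.3, whereas Casp1 lies at 0.091 and 0.016, with only 6 and 1 UMIs.

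The genes lie on 7 chromosomes (GRCm38, GENCODE M21). Casp1 (chromosome 9, 5298517 to 5307265, plus strand) lies just before Casp4 (5308828 to 5336783, plus strand). Casp2 (42264985 to 42282508, plus strand) and Gsdme (50188888 to 50263862, minus strand) are both on chromosome 6. Casp6 is on chromosome 3 (129901425 to 129914103, plus strand), Casp8 on chromosome 1 (58795374 to 58847503, plus strand) and Casp9 on chromosome 4 (141793612 to 141815976, plus strand). Gsdmd is on chromosome 15 (75862327 to 75867408, plus strand) and Pycard on chromosome 7 (127989708 to 127993867, minus strand). No member shares exon bases with another gene on its own strand.

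Whether these levels differed between the injections was examined next. Pycard was lower in the tamoxifen-labelled library by more than counting error, Gsdme and Casp8 were slightly lower, and Casp6 was slightly higher. The log2 ratio (tamoxifen over oil) was -0.29 (-0.35 to -0.24) for Pycard, -0.15 (-0.25 to -0.05) for Gsdme and -0.10 (-0.17 to -0.04) for Casp8. It was 0.10 (0.02 to 0.17) for Casp6. The intervals of the remaining measured members included 0, with 0.01 (-0.09 to 0.11) for Casp2, 0.01 (-0.12 to 0.14) for Casp9 and -0.03 (-0.15 to 0.10) for Gsdmd. Under TMM scaling the Casp8 ratio was -0.06 (-0.13 to 0.01), and -0.07 (-0.14 to 0.00) with DESeq2 factors. With totals without mitochondrial and ribosomal protein genes Casp8 was -0.03 (-0.10 to 0.04) and Gsdme -0.08 (-0.18 to 0.02). Pycard stayed below 0, at -0.25 under TMM, -0.22 with those totals, and -0.48 under a strict filter of 1000 genes or more and up to 5% mitochondrial UMIs, which left 673 and 771 cells. Under that filter Casp6 was at 0.011, Casp2 at 0.29, Casp9 at 0.38 and Gsdmd at -0.24.

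None of the 7 members with at least 100 UMIs was past 1.5-fold, where 2.09% of the 10527 genes were at least 1.5-fold higher and 1.27% at least 1.5-fold lower. An interval above 0 was found for 1 of 7 members against 19.3% of all genes, and an interval below 0 for 3 of 7 against 39.8%. The median log2 ratio was -0.03 over the members and -0.06 over all genes. A sum over cells does not tell fewer cells with a transcript from less transcript per cell.

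More cells were called G1 in the tamoxifen-labelled library, 57.8% against 44.0%, so the ratios were also taken within each phase, an analysis added after the data had been seen. Phases were called from the counts of S and G2M genes in cells thinned to 3000 UMIs. Pycard was lower in the tamoxifen-labelled library in all 3 phases, at 77.9 against 104 CPM in G1, 91.1 against 106 CPM in S and 72.2 against 85.2 CPM in G2M. Its log2 ratios were -0.41 (-0.51 to -0.32), -0.22 (-0.33 to -0.11) and -0.24 (-0.33 to -0.15). Casp8 was lower in G1 at -0.22 (-0.33 to -0.11) and in G2M at -0.17 (-0.30 to -0.05), and in S it was -0.15 (-0.31 to 0.01). Within clusters, described further on, no Casp8 interval lay below 0. Gsdme was lower in G1 at -0.29 (-0.45 to -0.13) and in G2M at -0.23 (-0.40 to -0.05), while in S it was 0.01 (-0.23 to 0.25). The Casp6 ratio was 0.15 (0.03 to 0.27) in G1 and -0.01 (-0.12 to 0.11) in G2M. Free RNA can enter phase calls, and its part was not tested.

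**Figure D2:**
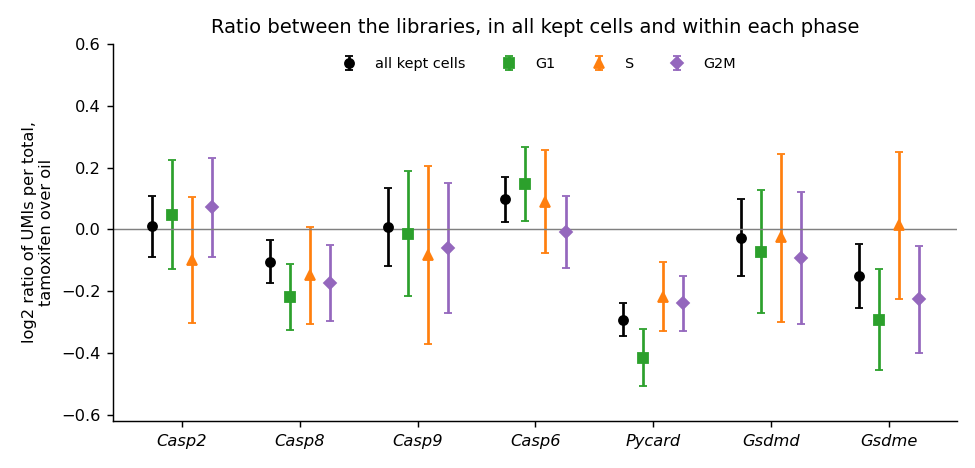
Log2 ratio of the share of UMIs, tamoxifen over oil, for the 7 measured members (horizontal axis) in all kept cells and within G1, S and G2M cells, with 95% counting intervals. All 4 Pycard points lie below 0, from -0.41 in G1 to -0.22 in S.

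How the members vary over the cell cycle was compared within each library, so the libraries serve as 2 side-by-side readings. All measured members but Casp2 were lower in G2M than in G1 cells in both libraries. These are 6 of 7 members, where 40.7% of the 10527 genes had intervals below 0 in both libraries and the median gene was at -0.16 and -0.14. Casp8 differed most, at 44.5 CPM in G2M and 72.4 CPM in G1 in the oil-labelled library and at 39.4 and 62.2 CPM in the tamoxifen-labelled library. Its log2 ratios were -0.70 (-0.81 to -0.59) and -0.66 (-0.78 to -0.54). Gsdmd followed at -0.49 (-0.69 to -0.29) and -0.51 (-0.72 to -0.30), then Gsdme at -0.46 and -0.39 and Casp9 at -0.37 and -0.42. Pycard at -0.29 and -0.11 and Casp6 at -0.14 and -0.29 were the smallest of the 6. The Casp2 interval included 0 in both libraries. In the cells of the strict filter 2 members, rather than 6, were lower in both. That filter left 673 and 771 cells, and the share of all genes was not computed there.

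In S cells Casp2 was higher than in G1 cells, at 30.8 against 24.2 CPM in the oil-labelled library and 28.7 against 25 CPM in the tamoxifen-labelled library. Its log2 ratios were 0.35 (0.16 to 0.54) and 0.20 (0.01 to 0.40). It was the 1 member with an interval above 0 in both libraries, as 26.8% of all genes had, and not when phases were called after thinning to 2000 UMIs or by the upper 25% of list shares. Casp8, Casp9, Casp6 and Gsdme were lower in S than in G1 cells in both, 4 of 7 members against 38.6% of genes. Casp8 had log2 ratios of -0.46 and -0.39, and Casp6 of -0.26 and -0.32. Gsdme was -0.55 (-0.75 to -0.36) in the oil-labelled library and -0.25 (-0.46 to -0.04) in the tamoxifen-labelled library, a difference of 0.30 (0.02 to 0.59). Pycard ratios also differed between the libraries, by 0.20 (0.05 to 0.34) in S over G1 and by 0.18 (0.05 to 0.30) in G2M over G1. S and G2M cells were deeper, with medians from 12513 to 13161 UMIs against 6030 and 6439 in G1, and the part of depth in these ratios was not tested.

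**Figure D3:**
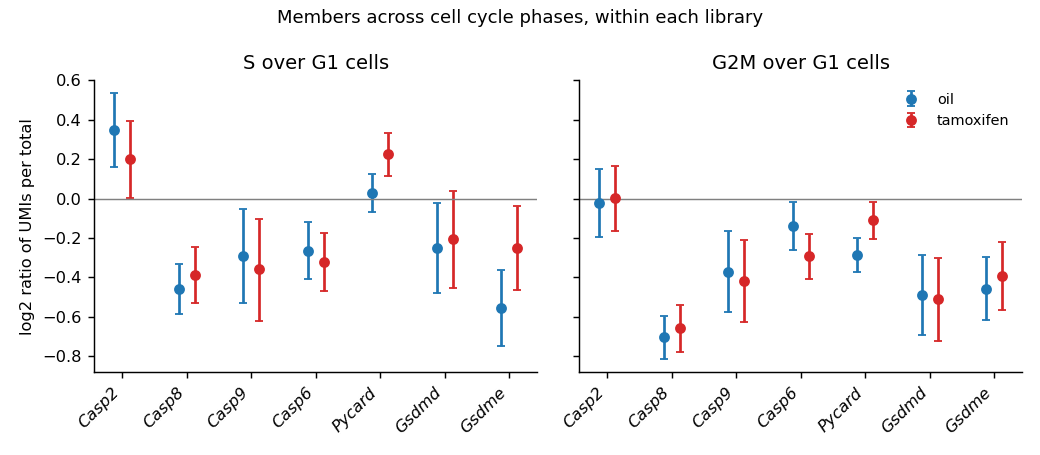
Log2 ratio of the share of UMIs in S over G1 cells (left) and G2M over G1 cells (right) for the 7 measured members, with 1 point per library and 95% counting intervals. Casp8 lies at -0.70 and -0.66 in G2M, and Casp2 is the member whose interval lies above 0 in S in both libraries.

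Cell states were compared by taking, in each library, the upper 25% of cells by the share of UMIs that a gene list took, and setting it against all other cells. Such a range is a cut of a score and not a cell type. The cut was set in each library on its own, so a range need not hold the same level in both. No member belongs to any of the lists. In cells rich in mast cell transcripts 6 of 7 members were higher in both libraries, all but Casp2, against 40.3% of genes and a median gene at 0.20 and 0.17. Casp8 was the furthest, at 88.4 against 50.3 CPM in the oil-labelled library and 80.7 against 46.4 CPM in the tamoxifen-labelled library, with log2 ratios of 0.81 (0.70 to 0.93) and 0.80 (0.68 to 0.92). Gsdme was 0.58 and 0.47, Gsdmd 0.46 and 0.46, and Pycard 0.41 and 0.35.

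These cells were shallower, with medians of 4732.5 and 5180 UMIs against 10702 and 9801.5, and 88.5% and 92.7% of them were in G1 against 30.2% and 46.8% of the rest. The comparison was therefore repeated among G1 cells alone, chosen after the data had been seen. Cells of the range were still shallower there, with medians of 4896 and 5320 UMIs against 7397 and 7527.5. The median gene was at 0.11 and 0.12, and the part of depth was not tested. Casp8, Pycard and Gsdme were still higher in both libraries, 3 of 7 members against 24.6% of genes. Casp8 stood at 90.3 against 62.7 CPM and at 82.6 against 54.2 CPM, with log2 ratios of 0.53 (0.37 to 0.68) and 0.61 (0.46 to 0.75). Pycard was at 0.46 (0.33 to 0.59) and 0.45 (0.32 to 0.59), and Gsdme at 0.34 (0.10 to 0.58) and 0.35 (0.11 to 0.58). The intervals of Gsdmd, Casp9 and Casp6 included 0 among G1 cells. Casp2 was 0.48 (0.20 to 0.75) in the oil-labelled library and -0.04 (-0.29 to 0.21) in the other, which differ by -0.52 (-0.88 to -0.15). With the strict filter 2 members were higher in both libraries, and the share of all genes was not computed there.

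Cells rich in interferon-stimulated transcripts were of interest because USP18 restrains interferon signalling. In this range Casp6, Casp8, Casp9, Gsdmd and Gsdme were higher in both libraries, 5 of 7 members against 26.1% of genes. Casp8 had log2 ratios of 0.48 and 0.32, Gsdme of 0.47 and 0.40, Gsdmd of 0.44 and 0.38, Casp9 of 0.34 and 0.45, and Casp6 of 0.23 and 0.29. With the upper 10% of cells 3 members were higher in both, and with the strict filter 0. The shares of all genes under these settings were not computed. Here too 70.2% and 78.1% of the cells were in G1, against 35.9% and 51.2% of the rest. Cells of the range were shallower, with medians of 5787.5 and 6422.5 UMIs against 9958 and 8957. Within G1 these medians were 5464.5 and 6185 UMIs against 6406 and 6555.5, and the part of depth was not tested. Among G1 cells the median gene was at 0.03 and 0.02, and the interval lay above 0 in both libraries for 1 of 7 members, Gsdme, against 5.04% of genes. Gsdme stood there at 36.3 against 29.6 CPM and 31.2 against 23.7 CPM, with log2 ratios of 0.29 (0.05 to 0.54) and 0.39 (0.16 to 0.62).

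Pycard had ratios of opposite sign in the 2 libraries over all kept cells. It was at 105 CPM in the interferon range and 94.0 CPM in other cells of the oil-labelled library, and at 68.2 and 80.9 CPM in the tamoxifen-labelled library. The log2 ratios were 0.16 (0.07 to 0.25) and -0.25 (-0.36 to -0.14). The median gene was at 0.10 and 0.07, and the Pycard ratios differed by -0.41 with a counting interval of -0.55 to -0.26. Among G1 cells the ratio was 0.09 (-0.04 to 0.23) in the oil-labelled library, an interval that included 0, and -0.25 (-0.39 to -0.10) in the tamoxifen-labelled library. They differed by -0.34 (-0.53 to -0.14). The range was cut at 0.109% of UMIs in the oil-labelled library and at 0.144% in the tamoxifen-labelled library. The ranges of the 2 libraries therefore do not hold the same interferon level.

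In the range richest in immediate early genes, which respond first to a stimulus, Casp8, Gsdmd, Gsdme and Pycard were higher in both libraries. These are 4 of 7 members against 36.2% of genes, with the median gene at 0.13 and 0.14. Without the 5% of cells with the most UMIs 2 members were higher, and the share of genes was not computed there. Cells of this range were shallower, with medians of 5257 and 5201 UMIs against 10246.5 and 9522. Of these cells 75.05% and 86.5% were in G1, against 34.3% and 49.2% of the rest. Casp8 was at 75.8 against 51.0 CPM and 71.7 against 47.2 CPM, with log2 ratios of 0.57 (0.46 to 0.68) and 0.60 (0.48 to 0.73). Among G1 cells those of the range were still shallower, with medians of 5112 and 5346 UMIs against 6881 and 7152, and the part of depth was not tested. Casp8 was the 1 member with an interval above 0 in both libraries among G1 cells, at 0.30 (0.14 to 0.46) and 0.34 (0.18 to 0.49), against 18.6% of genes. Gsdmd was there at 0.31 and 0.07 and Gsdme at 0.01 and 0.19, with intervals that included 0. In the range richest in erythroid transcripts 1 of 7 members, Gsdme, was higher in both libraries, against 15.7% of genes. It stood at 31.7 against 24 CPM and 27.4 against 21.9 CPM, or 0.40 (0.25 to 0.56) and 0.33 (0.15 to 0.50). Among G1 cells it was 0.45 and 0.36, where 13.7% of genes had intervals above 0 in both libraries. In the oil-labelled library 49.6% of that range was in G1 against 42.2% of the rest. In the tamoxifen-labelled library these shares were 56.8% and 58.1%.

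**Figure D4:**
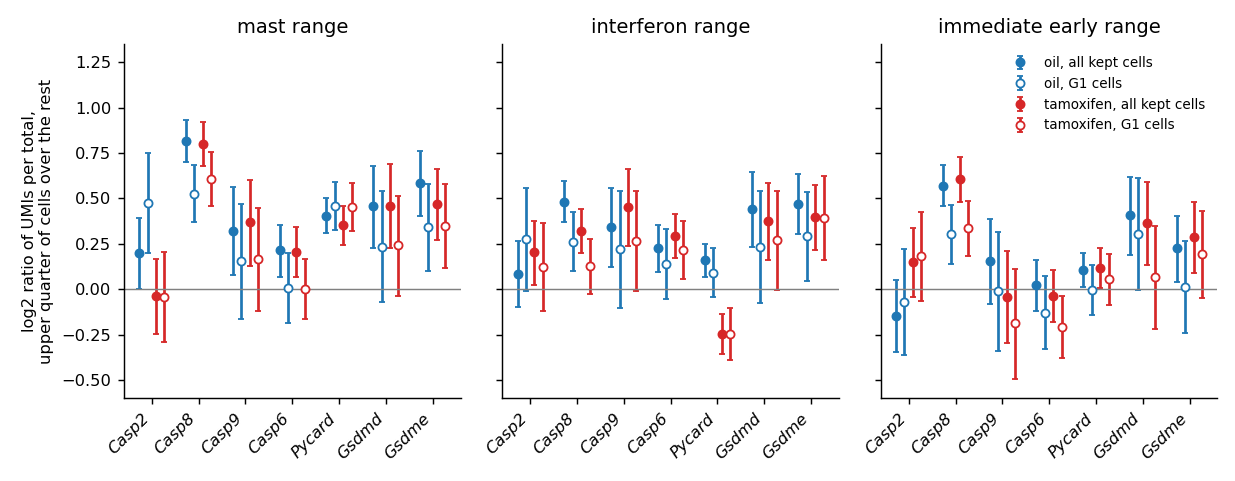
Log2 ratio of the share of UMIs in the upper 25% of cells by mast, interferon or immediate early list share over all other cells, for the 7 measured members, in each library. Filled points use all kept cells, open points G1 cells alone, and bars are 95% counting intervals; Casp8 is above 0 in the mast range in all 4 readings, and Pycard is below 0 in the interferon range of the tamoxifen-labelled library.

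Unsupervised clustering gave a finer description over 10 clusters, which are called by number. Kept out of its features were the members and the interferon, MHC class I, sex chromosome and mitochondrial genes. Genes with at least 100 UMIs that differed at least 1.5-fold between the libraries were kept out too. This rule did not bar genes with fewer UMIs or smaller differences, so the clusters can still reflect differences between the libraries. Cluster points with at least 1000000 UMIs in a library were read, 7 in the oil-labelled library and 9 in the tamoxifen-labelled library. Cluster 0, led by Klf2, S100a6 and mast cell proteases with 95.1% of its cells in G1, had the highest Casp8, Casp9, Gsdme and Pycard in both libraries. Casp8 was at 90.1 and 91.6 CPM there, against lowest values of 44.2 CPM in cluster 2 and 35.5 CPM in cluster 6. Gsdme was at 38.6 and 34.9 CPM there, against 20.9 CPM in cluster 2 and 13.8 CPM in cluster 7. Between the highest and the lowest cluster of each of the 7 members the folds ran from 1.44 to 4.27. These extremes were picked from 7 and 9 points, and the same span over all genes was not computed.

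The widest span was that of Gsdmd in the tamoxifen-labelled library, from 25 CPM (21.4 to 29.1) in cluster 4, led by Ifit1 among others, to 5.87 CPM (3.21 to 9.84; 14 UMIs) in cluster 7. Cluster 7 was led by Ccl2, Rel and Ptpn22, and 7.62% of its cells came from the oil-labelled library, so it is nearly that of 1 library. Its Pycard was the lowest of any cluster point at 43.2 CPM (35.2 to 52.3), and its Casp2 the highest at 36.5 CPM (29.2 to 45). Cluster 6, with 9.51% of its cells from the oil-labelled library, was similar, at 54.9 CPM for Pycard, 8.78 CPM for Gsdmd and 33.0 CPM for Casp2. In the 7 clusters that could be read in both libraries, clusters 6 and 7 not among them, Pycard was lower in the tamoxifen-labelled library in 7 of 7, with the interval below 0 in 6. The log2 ratios ran from -0.44 to -0.07, so the lower Pycard was also present without these 2 clusters. Gsdme was lower in 6 of 7 clusters and Casp8 in 5 of 7, with every interval including 0 for both genes. In cluster 0 the Casp8 ratio was 0.02 (-0.13 to 0.18) and in cluster 4 it was 0.08 (-0.18 to 0.33). In cluster 4 Gsdmd was higher in the tamoxifen-labelled library at 0.51 (0.12 to 0.92), and Casp6 at 0.27 (0.05 to 0.50). Casp2 had 1 interval below 0 among the 7 clusters, and Casp9 none on either side.

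**Figure D5:**
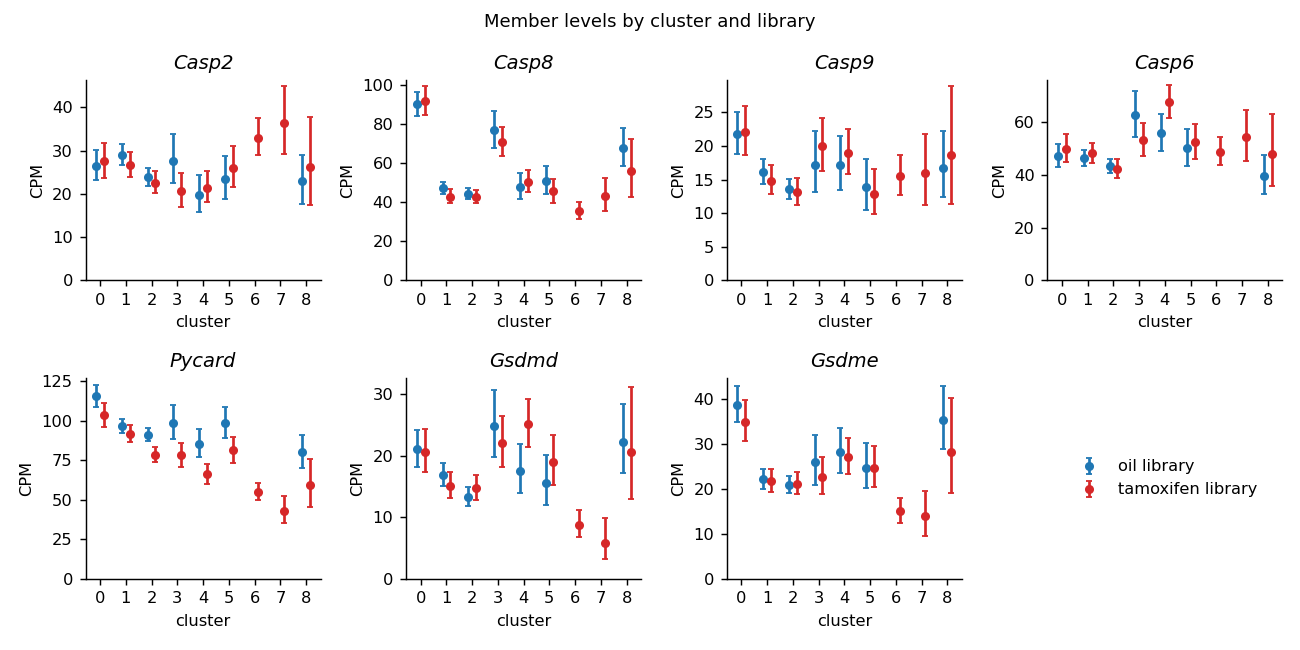
CPM of the 7 measured members in clusters 0 to 8, with 1 point per library and 95% Poisson intervals; points resting on under 1000000 UMIs are not drawn. Casp8 peaks in cluster 0 at 90.1 and 91.6, and Pycard and Gsdmd are lowest in cluster 7 of the tamoxifen-labelled library at 43.2 and 5.87.

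Over these 16 points, the profiles of Gsdmd and Gsdme had the highest correlation of any 2 members (Pearson r = 0.83), followed by Casp8 with Gsdme (0.77) and Casp8 with Casp9 (0.77). Casp2 ran the other way to Gsdmd (-0.64). The points share libraries and depth, and the values are descriptions. Among 9016 genes the profiles most like that of Casp8 were Saal1 (0.96), Pirb (0.96) and Vwa5a (0.95), and those most like Gsdme were Adam10 (0.96), Lpcat3 (0.96) and Bin2 (0.94). For Gsdmd they were Ufsp2 (0.94), Prkaa1 (0.93) and Slc45a4 (0.92), for Pycard Macrod2, Srp14 and Zbtb11os1 (0.91, 0.91, 0.89), and for Casp9 Sema4b, Car5b and March8 (0.91 each). Casp6 was most like Irgm1, Ccdc107 and Mpped2 (0.86, 0.85, 0.84), and Casp2 most like Chka, Brpf1 and Mrgbp (0.85, 0.81, 0.81). The median gene had r from -0.07 to 0.25 with the members.

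Whether single cells hold several of these transcripts was then read from detection. Counted as deposited, Pycard was detected in 52.2% of cells of the oil-labelled library and 44.9% of the tamoxifen-labelled library, Casp8 in 39.0% and 36.4%, and Casp6 in 33.5% and 35.2%. Detection depends on depth, so each cell was also read at a depth of 3000 UMIs, without the 508 and 345 cells that were shallower. Pycard was then found in 24.8% (23.7 to 25.8) and 20.4% (19.4 to 21.4) of cells, a difference of -4.36 percentage points (-5.83 to -2.89). Casp8 was in 16.9% and 15.6%, Casp6 in 13.1% and 14.4%, and Gsdme in 7.70% and 6.91%. Casp2 was in 7.47% in both libraries, Gsdmd in 5.20% and 5.02%, and Casp9 in 4.96% and 5.02%. The sort left 1 population, and without a second cell type the detection that free RNA alone would give is unknown.

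At 3000 UMIs at least 1 member was detected in 57.7% and 55.0% of cells, with a mean of 0.801 and 0.748 members per cell. As deposited, the mean was 1.95 and 1.83, and 14.2% and 15.7% of cells had none. All members but Casp1 were seen together in 4 cells of the oil-labelled library and 2 of the tamoxifen-labelled library, and all 8 in none, where Casp1 itself was seen in 6 cells and 1 cell.

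Members were found together about as often as the product of their separate shares. Over the 21 pairs of the 7 members, the share of cells with both genes at 3000 UMIs divided by that product had a median of 1.02 and 1.01, and ranged from 0.805 to 1.22 and from 0.916 to 1.25. Casp8 and Casp9 were at 1.19 in both libraries. Gsdme and Pycard were at 1.1 and 1.12. Casp9 with Gsdmd, the lowest pair in the oil-labelled library, was the highest in the tamoxifen-labelled library, and 149 and 160 cells held both in the unthinned counts. Without thinning the median was 1.17 in both libraries.

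Sets of transcripts of 1 route were counted in cells as deposited. Pycard, Casp1 and Gsdmd, the classical inflammasome route, were together in 0 of 6838 and 0 of 6472 cells, which allows a share of cells with these UMIs of up to 0.0439% and 0.0464% (3 cells). This limits detection and not transcript content, since Casp1 had so few UMIs. The 6 Casp1 cells of the oil-labelled library included 2 with Pycard and none with Gsdmd, and the 1 Casp1 cell of the tamoxifen-labelled library had neither. Pycard, Casp8 and Gsdmd were together in 297 cells (4.34%, 3.87 to 4.85) and 197 cells (3.04%, 2.64 to 3.49). Both gasdermins were seen in 3.55% and 3.03%. Cells without a transcript at this depth may still contain it, and doublets can add to such counts.

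The other genes of the pathways were read in the same way, where 19.3% of all genes had intervals above 0 and 39.8% below, with a median log2 ratio of -0.06. Of 22 measured regulators of caspases 7 had intervals above 0 and 12 below, with a median log2 ratio of -0.09. The highest were Birc3 (0.23), an inhibitor of apoptosis protein, and Apaf1 (0.22), the scaffold of the apoptosome, and the lowest were Birc5 (-0.51), which also serves in mitosis, and Endog (-0.50), a mitochondrial nuclease. Of 14 measured inflammasome genes 5 were above and 2 below, with a median of 0.11. This median changed sign with the strict filter (-0.095), with a minimum of 500 UMIs (-0.023) and with equal weight for every cell (-0.00092). Gbp2 (0.72) and Gbp5 (0.68), interferon-induced GTPases, were the highest, and Serpinb1a (-0.44), an inhibitor of neutrophil proteases and inflammatory caspases, and Hmgb1 (-0.21), a chromatin protein released from dying cells, the lowest. The sensor Nlrp3 had 1 UMI in each library, whereas Aim2, a sensor of cytosolic DNA, had 269 and 225. Of 6 measured genes of necroptosis and membrane rupture none was above and 4 were below 0, with a median of -0.19. Ripk3 (-0.55) and its substrate Mlkl (-0.37), which forms the necroptotic pore, were the lowest, and Chmp4b (0.01) and Ninj1 (-0.08) the highest.

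Barcodes over 10% mitochondrial UMIs, 731 and 713 in number, had been left out, and the members were read there on totals without mitochondrial genes. Casp8 was higher in them than in the kept cells in both libraries, at 74.9 against 58.9 CPM and 67.2 against 54.8 CPM. Its log2 ratios were 0.35 (0.16 to 0.53) and 0.29 (0.10 to 0.48), and 14.3% of genes were higher in both libraries. The intervals of the other measured members included 0 in both. In kept cells with under 2% mitochondrial UMIs, 165 and 89 cells with median depths of 1212 and 1651 UMIs, Gsdme was at 64.3 CPM (37.4 to 103) and 56.5 CPM (28.2 to 101), from 17 and 11 UMIs. Kept cells with 5 to 10% mitochondrial UMIs held 26.8 and 24.3 CPM of Gsdme.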

How the data were processed

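Deposited values are raw UMI counts of each gene in each cell. Per the labels and methods the authors sequenced 3′ libraries (Chromium V3) and used Cell Ranger with mm10. The matrix header gives software version 3.0.2. The counts were used as deposited, and no column of other samples was present. Depth was 66045700 and 60661486 UMIs in the kept cells.

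The members and gene lists were chosen with earlier results of these data known. Barcodes were kept from 500 genes upwards and up to 10% mitochondrial UMIs, and no doublets were removed. UMIs were summed per library. CPM has exact Poisson intervals, log2 ratios have exact conditional binomial intervals, and shares of cells have Clopper-Pearson intervals, all at 95% and for counting error only. The difference of 2 log2 ratios has a normal interval from the counts. Ratios used genes whose UMIs over both libraries reached 100. With 1 library per group no test was run. Shares at 3000 UMIs are exact expectations over random thinning. Phases were called on thinned cells from 42 S and 53 G2M genes. State ranges are the upper 25% of cells. Clusters were made with Seurat (2000 variable features after the exclusions given above, 20 components, resolution 0.5). Cluster profiles used log2 CPM with a pseudocount of 1.

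Named genes are the members, other caspases and gasdermins, the 2 highest and 2 lowest ratios of each pathway list among genes with at least 100 UMIs, the 3 genes with the most similar cluster profile, Usp18, Isg15 and Ifit1. The results of 2 genes that this rule selects are not reported here. Nlrp3 and Aim2 were named after their values were seen. Counts for tamoxifen against oil were also simulated with counting error only (10527 genes, 200 of them changed by at least 2-fold). The intervals excluded 0 in the true direction for 100% of changed genes, and coverage was 95.6%. No measured member differed that much between the libraries, and spread between animals was not simulated. Alternatives were other cell filters, scalings (TMM of edgeR, median-ratio factors of DESeq2), count minimums, phase calls, ranges, depths and cluster settings. The minimum of 1000000 UMIs per cluster point and the comparisons within phases were added after the data had been seen. R 4.3.3 ran Seurat 5.3.0, edgeR 4.0.16 and DESeq2 1.42.0, and Python 3.11.15 ran scipy 1.17.1 with numpy 2.4.6.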

Additional observations from a re-analysis of the deposited data

Results flagged for a closer look

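The Pycard difference between cells rich in interferon-stimulated transcripts and other cells had opposite signs in the 2 libraries, with log2 ratios of 0.16 in the oil-labelled library and -0.25 in the tamoxifen-labelled library. Among G1 cells the ratio in the oil-labelled library was 0.09, with an interval of -0.04 to 0.23 that included 0. The range was cut in each library on its own, at 0.109% of UMIs in the oil-labelled library and 0.144% in the tamoxifen-labelled library. The intervals cover counting error only, and whether the difference exceeds the spread between animals was not tested.

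Some member transcripts also occurred in barcodes with under 500 detected genes, which no comparison used. In 205 such barcodes of the oil-labelled library there were 8 UMIs of Pycard, 7 of Gsdme, 6 of Casp8 and 5 of Gsdmd, each above the 3 UMIs that a count of 0 allows. In 126 such barcodes of the tamoxifen-labelled library Casp8 had 4 UMIs.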

How the results depend on the processing

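No paired analysis was possible because the comparison has a single pooled library on each side. Pycard was lower in the tamoxifen-labelled library under every alternative run, with log2 ratios down to -0.48. Of 236 values of the main comparisons recomputed under alternatives 181 moved by less than their intervals, or for counts by less than 1.5 times. The cause of the others was not tested, and under some alternatives fewer cells or genes entered.

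A strict filter (1000 genes or more, mitochondrial share up to 5%) left 673 and 771 cells, and the log2 ratios were 0.29 for Casp2, 0.011 for Casp6, 0.38 for Casp9, -0.24 for Gsdmd and -0.48 for Pycard. The list medians became -0.039 for regulators, -0.095 for inflammasome genes and -0.053 for necroptosis, and 295 genes were past 1.5-fold lower. Under this filter 2 members were lower in G2M, 1 lower and 0 higher in S, and 2, 0, 0 and 1 members were higher in the mast, interferon, erythroid and immediate early ranges in both libraries. For member counts under this and the other alternative filters, phase calls and ranges, the share of all genes was not computed. Signs reversed there for Pycard in G2M of oil (0.063), in interferon of oil for Casp6 (-0.17) and Casp9 (-0.12), in mast of oil for Casp6 (-0.13), in immediate early of oil for Pycard (-0.23), and in erythroid of tamoxifen for Casp6 (-0.24) and Casp9 (-0.20).

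TMM scaling shifted all ratios by 0.04 and gave medians of -0.050 (regulators) and -0.14 (necroptosis). DESeq2 factors gave -0.054 and -0.15. Totals free of mitochondrial and ribosomal protein genes shifted ratios by 0.07, with -0.034 for Casp8, -0.22 for Pycard, medians of -0.022 (regulators), -0.12 (necroptosis) and 0.044 (members), and 88 genes lower. Equal weight for every cell gave -0.16 for Gsdmd, medians of -0.12 (members) and -0.23 (necroptosis), an inflammasome median of -0.00092, and 231 genes lower. A minimum of 20 UMIs gave 572 genes higher, 370 lower and an inflammasome median of 0.25, and a minimum of 500 gave 105, 73 and -0.023.

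Phases called after thinning to 2000 UMIs, or by the upper 25% of list shares, left 0 members higher in S, and the latter 2 lower. Each of these calls left 4 members lower in G2M. In a narrower range, the upper 10% of cells, 3 members were higher in the interferon range, 2 in the erythroid and 2 in the immediate early range, and Casp2 in interferon of tamoxifen was -0.051. Without the 5% of cells with the most UMIs, possible doublets, 2 members were higher in the immediate early range. Without thinning the co-detection medians were 1.17 and 1.17.

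Within G1 cells (added after seeing the data) the ratios were -0.22 for Casp8, -0.29 for Gsdme and -0.41 for Pycard, 3 members were higher in the mast, 1 in the interferon and 1 in the immediate early range, and Pycard in immediate early of oil was -0.0012. Within S cells Casp2 was -0.10, Gsdme 0.013 and Pycard -0.22, and within G2M cells Casp6 was -0.0075.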
